A study of Homo sapiens with 6 samples.

Results

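The genes described here are noncoding genes that lie inside, across or next to another gene and are read from the same strand. They were taken from the gene table by their GENCODE biotype, sense_intronic or sense_overlapping, and by a minimum of 10 reads in at least 3 of the 6 libraries. The table holds 1074 genes with these biotypes, 894 sense_intronic and 180 sense_overlapping. Of these, 155 passed the minimum, 115 sense_intronic and 40 sense_overlapping, among 15801 genes of any kind that passed it and 58735 genes in the table. Of the sense_intronic genes, 306 had 0 counts in every library and 473 had counts below the minimum, and the numbers were 59 and 81 for the sense_overlapping genes. The minimum uses measured counts, so the level of the 155 genes is not a result. At its edge, AC022150.2 (11, 6 and 3 counts in si-NC, 2, 16 and 11 in si-SRSF11) just passed and BX255925.1 (9, 15 and 8 against 9, 16 and 6) just failed.

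Sense intronic genes are annotated noncoding transcripts that sit in an intron of a host gene without touching its exons, and the sense_overlapping label was made for noncoding transcripts that have a coding gene on the same strand within one of their own introns. Some are RNAs with their own promoter, and others are pieces of the host's unspliced RNA that end at a poly(A) site in the intron. RNA that runs past the end of a coding gene can also be annotated as a separate gene of this kind.

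The cells were LoVo, a human line established from colorectal cancer, and received either a negative control siRNA (si-NC, 3 libraries) or one directed at SRSF11 (si-SRSF11, 3 libraries), which encodes a splicing factor of the SR-related family. All libraries came from poly(A) RNA picked on poly-T beads, were made with a kit that does not mark the strand and were read as 150 bp pairs, and the sources used here do not say which SRSF11 siRNA was used. The total counts ranged from 14369525 to 16685719 and were higher in each si-SRSF11 library than in any si-NC library. SRSF11 had 1271, 1281 and 1363 counts in si-NC and 789, 789 and 807 in si-SRSF11, a log2 fold change of -0.81 (SE 0.054, adjusted p = 6.1e-10), so the target was lower in every si-SRSF11 library. Epithelial genes such as EPCAM (239 ± 5.61 CPM in si-NC, SD, n = 3, CPM being counts scaled to the library total) and KRT8 were abundant, although KRT20 and CEACAM5 lay near 1 CPM. Of 14 markers of leukocytes, fibroblasts, endothelium and hepatocytes, 9 stayed below 1 CPM in every library, and PTPRC and DCN were among those with 0 counts. The other marker levels reached 15.7 CPM at most, in PDGFRB, which was 8.89 ± 1.46 CPM in si-NC and 14.5 ± 1.12 CPM in si-SRSF11 (SD, n = 3). The part of such cells in the results was not tested.

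After SRSF11 knockdown the 2 biotypes leaned to opposite sides of 0. Of the 115 sense_intronic genes, 81 had a log2 fold change below 0 and 34 above 0, with a median of -0.16. Of the 40 sense_overlapping genes, 30 lay above 0 and 10 below 0, with a median of 0.22. The median of all 15801 genes tested was 0.00. Other noncoding classes of the same table had a median of -0.18 (930 antisense genes) and -0.13 (713 lincRNA genes), on the same side as the sense_intronic genes. The sense_overlapping median was thus the one above 0 among these 4 noncoding classes.

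Few of the single changes passed the test. An adjusted p under 0.05 (edgeR, quasi-likelihood F test, Benjamini-Hochberg over all genes tested) was reached by 15 of the 155 genes (9.68%) and by 24.6% of all genes tested. Of these, 7 were higher in si-SRSF11 (background 13.2%) and 8 were lower (background 11.4%). The split rested on single libraries, with 3 higher and 9 lower without si-NC replicate 1, and 3 higher and 8 lower without si-NC replicate 3. The sense_intronic genes gave 2 higher and 7 lower (7.83% called), and the sense_overlapping genes gave 5 higher and 1 lower (15.0% called). Both shares lay below the 24.6% of all genes tested, and neither biotype exceeded the background of its own direction. The CPM of the groups did not overlap in 32 of the 155 genes (20.6%), where 38.8% of all genes tested showed no overlap. Among sense_intronic genes 21 of these lay lower and 3 higher in si-SRSF11, and among sense_overlapping genes 2 lay lower and 6 higher. Over all genes tested 18.9% lay lower and 20.0% higher with no overlap, so none of these counts exceeded its background share. The 155 genes include 3 that reached 10 counts in 1 group only, so the minimum itself favoured a separation of their groups. AC108134.4, the 1 lower sense_overlapping gene among the 15, is among them. AJ239328.1 and AC008982.2, also among the 15, met the minimum mainly through the group where they were higher. The members were sparse, with a median of 1.5 CPM (23.0 counts per library) against 21.3 CPM over all genes tested. Their share of calls was below the background, and the part of the low counts in this was not tested.

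**Figure D1:**
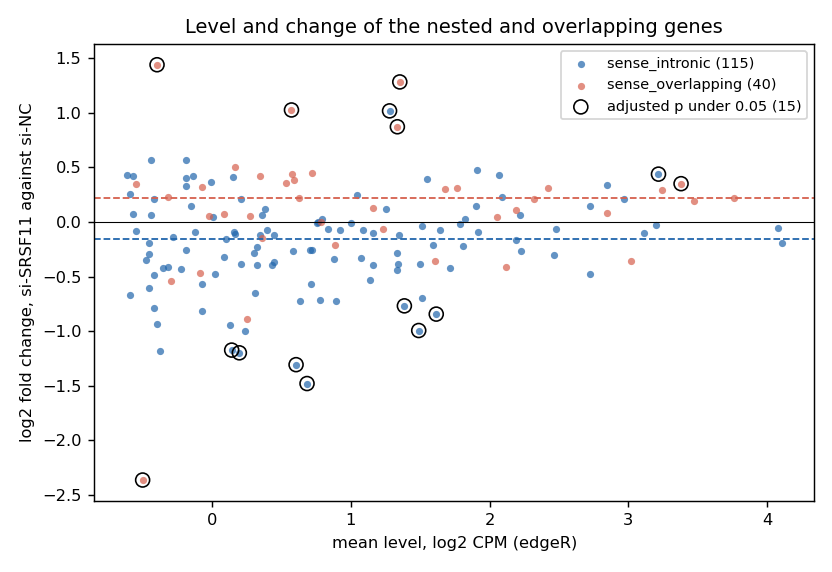
Mean level (x axis, log2 CPM) and change after SRSF11 knockdown (y axis, log2 fold change, si-SRSF11 against si-NC) of the 155 genes, blue for sense_intronic and red for sense_overlapping, with dashed lines at the median of each biotype and black rings on the 15 genes with an adjusted p under 0.05. The blue median lies at -0.16 and the red median at 0.22.

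The summed level of each biotype, over all of its genes whether or not they passed the minimum, showed the same opposite directions. The 894 sense_intronic genes added up to 339.3, 366.1 and 322.9 CPM in si-NC and to 311.8, 331.3 and 308.0 CPM in si-SRSF11. These groups overlapped, with means of 342.8 ± 21.8 and 317.0 ± 12.5 CPM (SD, n = 3, exact two-sided permutation test, p = 0.2). The 180 sense_overlapping genes added up to 123.6, 134.6 and 127.3 CPM in si-NC and to 142.8, 145.1 and 143.0 CPM in si-SRSF11. Here every si-SRSF11 library lay above every si-NC library, and the mean was 11.8% higher (p = 0.1 by the same exact permutation test, the lowest p within reach of 3 libraries against 3). The ratio of overlapping to intronic counts, which needs no scaling between libraries and was added after the data were seen, was 0.364, 0.368 and 0.394 in si-NC and 0.458, 0.438 and 0.464 in si-SRSF11. It did not overlap between the groups either and was 20.8% higher in si-SRSF11 (exact p = 0.1).

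**Figure D2:**
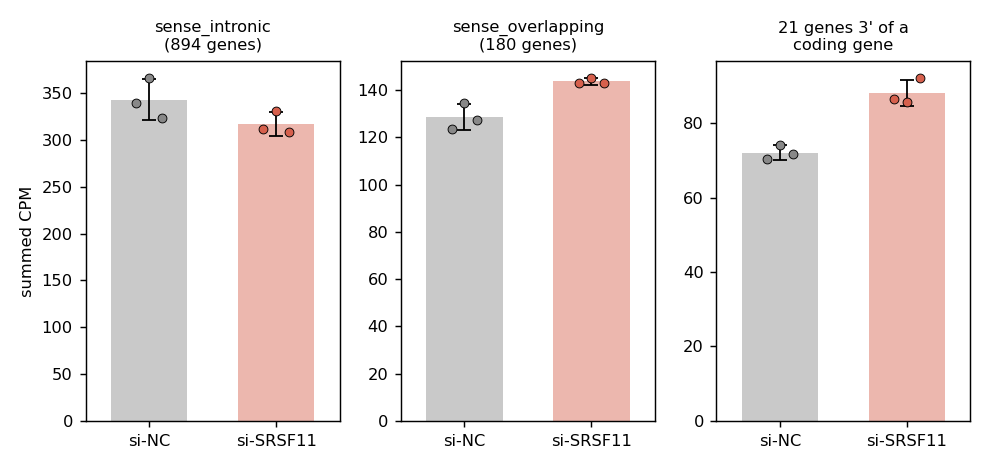
Summed CPM (y axes, each from 0) per library in si-NC and si-SRSF11 of all 894 sense_intronic genes, all 180 sense_overlapping genes and the 21 sense_overlapping genes that lie 3′ of a coding gene, with points for libraries, bars for the mean and error bars for the SD (n = 3). The sense_intronic groups overlap, with si-NC from 322.9 to 366.1 and si-SRSF11 from 308.0 to 331.3 CPM, while the other 2 sums are higher in each si-SRSF11 library than in any si-NC library.

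The label sense_overlapping did not match the spans of the table in most of its 40 genes. Only 6 lay within a gene of another biotype on the same strand, 2 held such a gene and 9 overlapped one in part, while 23 overlapped none. Of these 23 genes, 21 began within 10000 nt of the 3′ end of an expressed protein-coding gene on the same strand, each of a different gene, at 68 to 6822 nt and a median of 2623 nt. This group was formed after values were seen and its genes are described without a test of the group. Of the 21 genes, 20 have 1 exon, their annotated exon length is 911 to 5428 nt, and none shares an exon base with another gene or is crossed by a gene of the opposite strand. The reads of RNA that continues past the coding gene's annotated end and of a separate transcript at the same place cannot be told apart in these counts.

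The higher summed level of the sense_overlapping genes was carried by these downstream genes. Of the 21 genes, 19 had a log2 fold change above 0 (median 0.22, range -0.14 to 1.28), and 4 passed the test, all higher, where 13.2% of all genes tested were called higher. Of the other 19 sense_overlapping genes 11 lay above 0, with a median of 0.05. The summed level of the 21 downstream genes was 70.34, 74.22 and 71.64 CPM in si-NC and 86.58, 85.71 and 92.11 CPM in si-SRSF11, 22.3% higher, with no overlap between the groups. The 21 upstream coding genes together went from 1440 ± 15.3 to 1513 ± 15.6 CPM (SD, n = 3), 5.06% higher. The other 19 sense_overlapping genes together went from 44.73 ± 2.27 to 42.4 ± 3.62 CPM (SD, n = 3). Placed in the same way 3′ of a coding or other expressed gene, 61 of 132 lincRNA genes (median -0.04), 55 of 150 antisense genes (median -0.14) and 17 of 27 genes labelled TEC, a biotype for unsettled loci (median 0.13), lay above 0.

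The change of each downstream gene was set beside that of its coding neighbour. The upstream genes had a median log2 fold change of 0.08, with 5 higher and 1 lower by the test, and the downstream gene lay above its neighbour in 15 of 21 pairs, with a median difference of 0.21. The log2 ratio of the downstream to the upstream count did not overlap between the groups in 3 pairs, all higher in si-SRSF11, where 11.2% of the ratios of other nested genes to their hosts did so and 20.0% of all genes tested had higher CPM with no overlap. The 3 of 21 are thus near these shares. Read per kb of exon, the downstream genes had 0.362 to 104% of the density of their upstream gene, with a median of 18.9%. In the other 6 pairs the downstream gene lay below its neighbour, furthest beyond FAM83B. FAM83B, a signalling adaptor, rose by 0.73 (SE 0.25, adjusted p = 0.0369) while AL049555.1, 1145 nt beyond it, had a log2 fold change of 0.00 (SE 0.29). The difference was -0.72 (SE 0.39), and the ratio of the counts overlapped between the groups. FAM83B itself was sparse, with 28, 42 and 23 counts in si-NC and 61, 59 and 44 in si-SRSF11.

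AL390195.2 (ENSG00000260948) rose most among the sense_overlapping genes that the naming rule admits. For genes named as rising or falling the rule requires groups that do not overlap, so their separation is not a further result. It lies at chr1:111431046-111433068 on the minus strand (GRCh38), 6822 nt beyond the end of WDR77, which encodes the partner of the methyltransferase PRMT5. Its counts were 21, 18 and 24 in si-NC and 41, 61 and 62 in si-SRSF11. Every si-SRSF11 library lay above every si-NC library, and the mean went from 1.39 ± 0.185 to 3.39 ± 0.668 CPM (SD, n = 3), a log2 fold change of 1.28 (SE 0.25, adjusted p = 0.000733). WDR77 changed by 0.10 (SE 0.06, adjusted p = 0.233), so the downstream gene moved apart from it by 1.18 (SE 0.26).

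AC096921.2 and AL138756.1 rose beyond coding genes that rose too. AC096921.2 (chr3:30697661-30699576, plus strand) starts 3519 nt after TGFBR2, the type II receptor of TGF-beta, and had 9, 19 and 12 counts in si-NC and 31, 30 and 26 in si-SRSF11. Its log2 fold change was 1.03 (SE 0.33, adjusted p = 0.0255) beside 0.36 (SE 0.046) in TGFBR2. AL138756.1 (chr9:112032555-112037730, minus strand) starts 3055 nt after SUSD1, a sushi domain gene, and had 16, 29 and 31 counts in si-NC and 54, 33 and 61 in si-SRSF11. The groups of both genes did not overlap, and the log2 fold change of AL138756.1 was 0.87 (SE 0.28, adjusted p = 0.0263) beside 0.36 (SE 0.11) in SUSD1. Neither call was stable to leaving out a library: AC096921.2 lost it without si-NC replicate 1 or 3 or si-SRSF11 replicate 1 or 2 (adjusted p 0.068 to 0.11) and with DESeq2 (adjusted p = 0.057), and AL138756.1 without si-NC replicate 1 or si-SRSF11 replicate 1 or 3 (adjusted p 0.083 to 0.13).

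AC004656.1, one of the better covered genes, rose by less. It lies at chrX:24545516-24550466 on the plus strand, 3654 nt after PDK3, a kinase that shuts off pyruvate dehydrogenase. Its counts were 125, 141 and 142 in si-NC and 174, 185 and 195 in si-SRSF11, or 9.0 ± 0.343 and 11.5 ± 0.427 CPM (SD, n = 3). The groups did not overlap, as the naming rule requires, and the log2 fold change was 0.35 (SE 0.11, adjusted p = 0.0275), while PDK3 was at 0.01 (SE 0.13). The call was lost without si-NC replicate 1 or 3 or si-SRSF11 replicate 2 or 3 (adjusted p 0.062 to 0.1), with DESeq2 (adjusted p = 0.074) and with no filter on low counts (adjusted p = 0.06). Per kb, AC004656.1 had 91.5% of the density of PDK3.

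Another 3 downstream genes were among the 6 with the highest CPM and did not pass the test. AC125257.1, 2098 nt after KLHL11, had 167, 221 and 173 counts in si-NC and 215, 241 and 239 in si-SRSF11, with a log2 fold change of 0.22 (SE 0.11, adjusted p = 0.171). AL031985.3, 601 nt after the zinc finger gene ZFP69B, had 156, 153 and 153 against 178, 169 and 216 (log2 fold change 0.19, SE 0.12, adjusted p = 0.253). AL158212.3, 4746 nt after VTI1A, which encodes a SNARE protein of vesicle fusion, had 97, 131 and 152 against 160, 149 and 186 (log2 fold change 0.29, SE 0.14, adjusted p = 0.132). The first and the last overlapped between the groups by 1 library or more. AL031985.3 had counts above all of si-NC in each si-SRSF11 library, but its CPM overlapped once library size was taken into account.

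**Figure D3:**
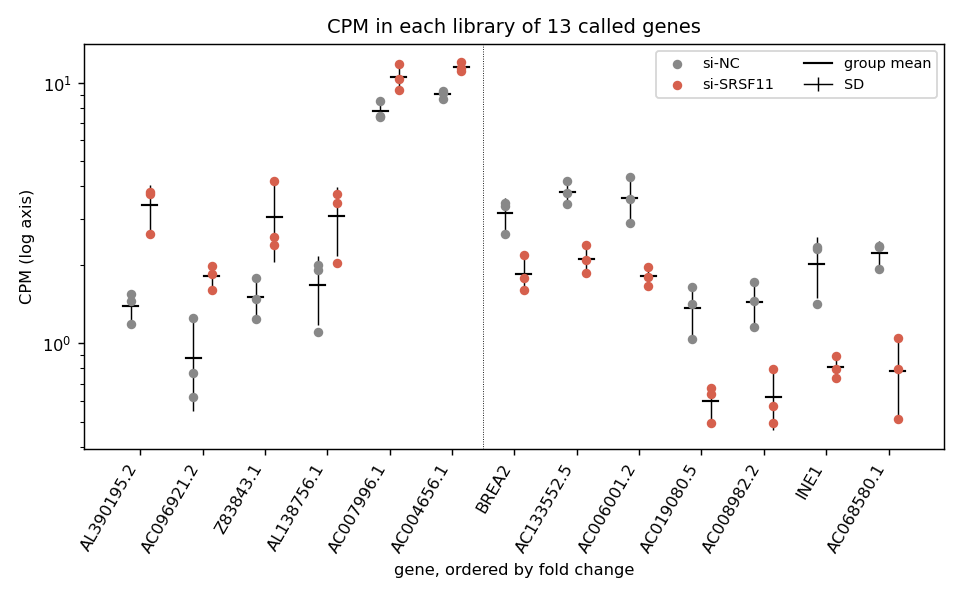
CPM (y axis, log scale) in each library of the 6 rising and 7 falling genes named by rule, si-NC in grey and si-SRSF11 in red, with black ticks at the group mean and black lines for the SD (n = 3). The rule admitted only genes whose groups do not overlap, so this holds for all 13 by selection. The dotted line separates the genes that rose from those that fell.

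The libraries were made from RNA captured by its poly(A) tail, so the ends of the annotated transcripts are shown for 8 of the 13 genes named as rising or falling, as examples. The last 30 nt of the longest transcript of each gene, as GENCODE 29 annotates it, are given on the RNA strand, and capitals mark the poly(A) signal AATAAA where it occurs:
AL390195.2 (chr1:111431046-111431075): ctgttacaAATAAAgctgcaatgaacattg
AC004656.1 (chrX:24550437-24550466): tcagaacAATAAAatggtagttgtgattca
AL138756.1 (chr9:112032555-112032584): ggcaAATAAAagttttatgtatttaaggca
AC007996.1 (chr18:26542971-26543000): tagatcaaAATAAAgacagttaaaaggtga
Z83843.1 (chrX:74209976-74210005): ttttcaaacattcattactagtatatagaa
AC019080.5 (chr2:177317715-177317744): ctccaaAATAAAaacactttatcaacttac
AC133552.5 (chr16:25106569-25106598): agcaagaAATAAAgggatatatgaaagcca
AC068580.1 (chr11:1763009-1763038): cccgcattcccaggaggggtatgctgaccc
Either AATAAA or ATTAAA, searched on the RNA strand, occurred in the last 30 nt of 80 of the 155 genes (51.6%), of 60.9% of all genes tested, of 66.4% of protein-coding, 49.9% of lincRNA and 43.0% of antisense genes. The share was 50.4% in sense_intronic genes, and 16 of the 21 downstream genes held one of the 2 signals. Among the genes that passed the test, 5 of 7 that rose and 5 of 8 that fell held one, so the 8 ends shown, 6 of them with a signal, hold it more often than the genes they stand for.

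GACTCA is a motif that the study examined in an exon of HSPA12A. Searched on the RNA strand of the longest transcript, it occurred in 36 of the 155 genes (23.2%), against 49.9% of all genes tested, whose transcripts are longer. Per 1000 nt it occurred 0.181 times in the 155 genes and 0.226 times over all genes tested. It was present in 3 of the 7 genes that rose and in none of the 8 that fell. AC004656.1 holds it at 2 places, here with the motif in capitals:
chrX:24549972-24550001: tcataactccttGACTCAtaaaagcggtgt
chrX:24550327-24550356: agagaagcatgtGACTCAgataatgttccc
The genes that rose were also longer than those that fell, with 1916 to 4951 nt of exon against 252 to 1963 nt, so a longer transcript has more room for any motif.

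Annotated length was set beside the change within each biotype. Of the 70 sense_intronic genes of up to 1000 nt, 49 lay below 0 (median -0.24) and the 6 that passed the test were lower. Of the 45 longer ones 32 lay below 0, a similar share, with a median of -0.11 and 1 lower and 2 higher by the test. Over all genes tested 11.4% were lower and 13.2% higher by the test, and the calls of neither length class exceeded these shares. Of the 32 sense_overlapping genes over 1000 nt, 26 lay above 0 (median 0.26). The 8 shorter ones split into 4 above and 4 below 0, with a median of -0.08. Across the 155 genes Spearman's rho of log2 fold change and exon length was 0.35, within sense_intronic genes 0.20 and within sense_overlapping genes 0.28. The first value mixes 2 biotypes that differ in median change and in median exon length (735 nt sense_intronic, 2561.5 nt sense_overlapping). Over antisense genes it was 0.03, over lincRNA genes 0.11 and over protein-coding genes 0.08. These values run across genes that share the same 6 libraries and are given as a description.

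The sense_intronic genes could be set against their hosts. A host was a gene of another biotype on the same strand whose span contains the nested gene, protein-coding ones first and then the shortest, and 117 of the 155 genes had one. For 108 the host also passed the minimum, giving 98 distinct hosts, and 19 nested genes shared a host with another, up to 3 in KLC1. Inside their intron, 73 of 106 nested genes lay nearer to the upstream than to the downstream host exon, at a median of 1458.5 and 4217.5 nt. Per kb of exon, the nested gene had a median of 22% of the density of its host, with quartiles at 7.88% and 73.4%, and 20 nested genes were denser than their host. Unspliced host RNA covers the same bases as the nested gene, and its reads cannot be told apart from those of a separate RNA.

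The nested genes lay lower than their hosts. The median difference of log2 fold changes, nested gene minus host, was -0.18, with the nested gene below the host in 80 of 108 pairs. The log2 ratio of nested to host counts did not overlap between the groups in 21 pairs (19.4%), 19 lower and 2 higher in si-SRSF11. The 19 lower pairs include HM13-IT1, which met the minimum count in si-NC alone, so the minimum itself favoured its lower ratio. Some others, such as AC008982.2, met it mainly through si-NC. In 303 pairs of nested genes of other biotypes the median was -0.06, 54.1% lay below the host and 26.1% did not overlap (14.9% lower, 11.2% higher). The lower ratios of the nested genes (17.6%, HM13-IT1 included) thus lay near that background, and the higher ones below it. For a single pair, the exact permutation test of 3 libraries against 3 cannot go below p = 0.10.

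The nested genes were also read by the direction of their host. Of the 98 hosts, 16 were higher and 15 were lower by the test, 31.6% in all against the 24.6% of all genes. Where the host was higher, 16 of 17 nested genes lay below it, with a median of -0.21 beside 0.27 in the hosts. Where the host was lower, 11 of 20 nested genes lay below it, with a median of -0.27 beside -0.25 in the hosts. These hosts were picked by their own change, which by itself sets a less changed gene below a higher host and above a lower one. Where the host did not pass, the 71 nested genes had a median of -0.16. Across the 108 pairs Pearson's r of the log2 fold changes was 0.12 and Spearman's rho 0.08. In the 69 pairs whose nested gene had at least 10 counts in all 6 libraries they were 0.28 and 0.21. All pairs share the same 6 libraries, and these values are a description.

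**Figure D4:**
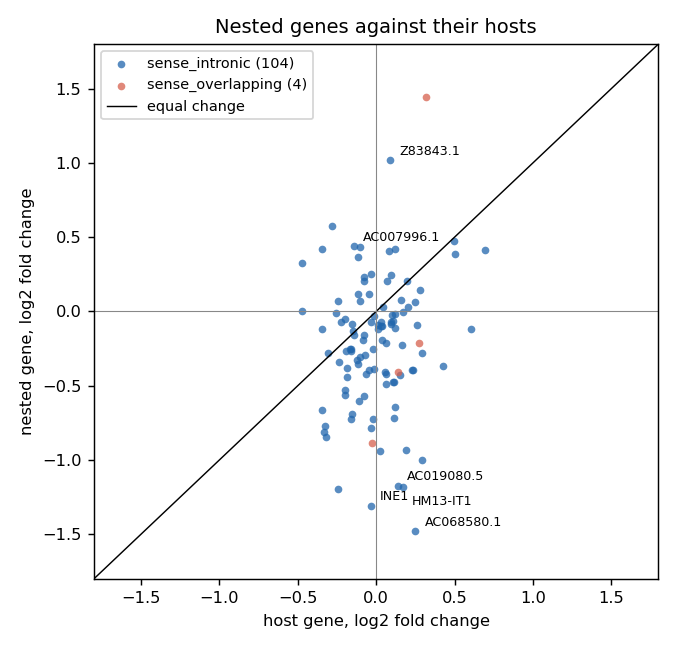
Log2 fold change of 108 nested genes (y axis) against that of the host gene (x axis), blue for sense_intronic and red for sense_overlapping, with a diagonal for equal change and labels on the pairs named by rule and on INE1. Of the points, 80 lie below the diagonal and 28 above it.

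AC068580.1 showed the largest gap to its host. This gene of 252 nt (chr11:1763009-1763749, minus strand) lies in an intron of CTSD, which encodes the lysosomal protease cathepsin D, and begins 43 nt after a host exon. Its counts were 34, 36 and 30 in si-NC and 8, 17 and 13 in si-SRSF11, and the host had 2034, 2005 and 2285 against 2713, 2439 and 2848. The 2 genes moved in opposite directions with no overlap in their ratio, which fell from 16.7, 18 and 13.1 nested reads per 1000 host reads to 2.95, 6.97 and 4.56. The log2 fold change was -1.48 (SE 0.32, adjusted p = 0.00157) in AC068580.1 and 0.25 (SE 0.058, adjusted p = 0.00273) in CTSD, a difference of -1.73 (SE 0.32).

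INE1 fell inside a host that did not pass the test. INE1 (ENSG00000224975, chrX:47204921-47205865, plus strand) is a noncoding gene in an intron of UBA1, the main E1 enzyme of ubiquitin conjugation, and ends 83 nt before a host exon. It had 34, 35 and 22 counts in si-NC and 14, 12 and 13 in si-SRSF11, or 2.02 ± 0.527 and 0.810 ± 0.0792 CPM (SD, n = 3). The groups did not overlap, and the log2 fold change was -1.31 (SE 0.32, adjusted p = 0.00482) beside -0.04 (SE 0.043) in UBA1. INE1 made up 1.90% of the read density of UBA1 per kb.

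AC019080.5 fell inside a host that rose. AC019080.5 (chr2:177317715-177318471, minus strand) lies in an intron of NFE2L2, which encodes the oxidative stress factor NRF2, with 15, 25 and 22 counts in si-NC and 10, 8 and 11 in si-SRSF11. Its log2 fold change was -1.17 (SE 0.37, adjusted p = 0.0237) beside 0.14 (SE 0.051, adjusted p = 0.0492) in NFE2L2, and the call was lost without si-NC replicate 2 or 3 or si-SRSF11 replicate 2 (adjusted p 0.065 to 0.095). HM13-IT1 (chr20:31563166-31564076, plus strand) lies in an intron of HM13, the signal peptide peptidase, and had 13, 11 and 17 counts against 5, 7 and 7. It reached 10 counts in si-NC alone, so it had to lie higher there to be listed, and its log2 fold change of -1.18 is given with no p, beside 0.17 (SE 0.046) in HM13. The ratio of AC019080.5 to its host was lower in each si-SRSF11 library than in any si-NC library. That of HM13-IT1, counted among the lower pairs above, is bound to the way it was listed and is not read further.

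AC008982.2 and BREA2 fell together with their hosts but further. AC008982.2 (chr19:38844729-38845499, minus strand) lies in an intron of HNRNPL, itself a splicing regulator, and had 25, 22 and 18 counts in si-NC and 9, 8 and 13 in si-SRSF11. Its log2 fold change was -1.20 (SE 0.37, adjusted p = 0.0196) beside -0.24 (SE 0.049, adjusted p = 0.000876) in HNRNPL. BREA2 (chr8:143696154-143698413, plus strand) lies in an intron of the zinc finger gene ZNF707 and had 38, 51 and 54 counts against 34, 29 and 26. The CPM of neither gene overlapped between the groups, and BREA2 changed by -0.77 (SE 0.24, adjusted p = 0.0215) beside -0.33 (SE 0.062) in ZNF707. The call of AC008982.2 was lost without si-NC replicate 1 or si-SRSF11 replicate 1 or 2 (adjusted p 0.051 to 0.085), and that of BREA2 without si-NC replicate 2 or 3 or si-SRSF11 replicate 2 or 3 (adjusted p 0.063 to 0.088).

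The remaining falls lay in introns of noncoding or little expressed genes. AC006001.2 (chr7:66654538-66669855, plus strand), a gene of 4 exons whose host AC027644.4 did not pass the minimum, had 52, 66 and 45 counts in si-NC and 28, 32 and 27 in si-SRSF11, a log2 fold change of -0.99 (SE 0.23, adjusted p = 0.00326). AC133552.5 (chr16:25106569-25107102, minus strand), in an intron of LCMT1-AS1, had 61, 52 and 59 against 29, 34 and 39, a log2 fold change of -0.84 (SE 0.22, adjusted p = 0.00609) beside -0.32 (SE 0.32, adjusted p = 0.509) in the host. In both genes the si-SRSF11 libraries were all lower than the lowest si-NC library. These calls, and those of AL390195.2, AC068580.1 and INE1, were kept when any 1 library was left out.

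The remaining rises were in 2 introns whose hosts did not pass the test. Z83843.1 (chrX:74209976-74213660, minus strand) lies in an intron of FTX, a long noncoding RNA of the X inactivation centre, with 18, 27 and 23 counts in si-NC and 40, 68 and 39 in si-SRSF11. Its log2 fold change was 1.02 (SE 0.28, adjusted p = 0.0092) beside 0.09 (SE 0.11) in FTX, and the call was lost without si-SRSF11 replicate 2 (adjusted p = 0.11). AC007996.1 (chr18:26542971-26545791, minus strand) lies 937 nt into an intron of KCTD1, which encodes a BTB domain repressor of transcription, with 123, 112 and 116 counts against 162, 152 and 193. Its groups did not overlap, with 7.77 ± 0.621 and 10.5 ± 1.25 CPM (SD, n = 3). The log2 fold change was 0.44 (SE 0.13, adjusted p = 0.0159) beside -0.14 (SE 0.082, adjusted p = 0.216) in KCTD1, and the call was lost without si-NC replicate 2 or 3 or si-SRSF11 replicate 3 (adjusted p 0.059 to 0.085). These were the 2 pairs whose ratio to the host was higher in every si-SRSF11 library.

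The sense_intronic genes with the highest CPM, GABPB1-IT1 and AL049840.4, did not pass the test. GABPB1-IT1, in an intron of GABPB1, the partner subunit of an ETS factor, had 261, 287 and 277 counts in si-NC and 230, 268 and 272 in si-SRSF11. Its log2 fold change of -0.19 (SE 0.095, adjusted p = 0.151) did not pass, beside -0.08 (SE 0.088) in GABPB1. AL049840.4, in an intron of the kinesin light chain gene KLC1, had 277, 234 and 261 against 247, 278 and 269, with overlapping groups and a log2 fold change of -0.05 (SE 0.10, adjusted p = 0.752). Per kb of exon, AL049840.4 had 433% of the density of KLC1 and GABPB1-IT1 83.9% of that of GABPB1. Within KLC1, AL049840.3 and AL049840.5 had log2 fold changes of -0.53 (SE 0.29) and -0.56 (SE 0.30), neither past the test, and KLC1 itself fell by 0.20 (SE 0.054, adjusted p = 0.00932).

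Of the 15 genes past the test, 2 fall outside the naming rule and are named after their values were seen. AJ239328.1, within PCBP3 on the same strand, had 3, 10 and 2 counts in si-NC and 14, 17 and 13 in si-SRSF11 (log2 fold change 1.44, SE 0.51, adjusted p = 0.0408). AC108134.4 had 17, 14 and 14 counts in si-NC and 5, 2 and 2 in si-SRSF11. It reached 10 counts in si-NC alone, so it is given with no p, as is AC090970.2, which had 7, 6 and 9 counts in si-NC and 11, 11 and 13 in si-SRSF11. The separation of the groups in AC108134.4 and AC090970.2 was favoured by the minimum itself, and AC108134.4 is the 1 lower sense_overlapping gene among the 15. AJ239328.1, with 3 and 2 counts in si-NC below the minimum of 10, met it mainly through si-SRSF11. The minimum thus favoured its separation too, and its adjusted p is given as a description. All 3 genes lay under 1 CPM on average in both groups.

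The factors that clear RNA of this kind or set its 3′ end were read from lists of the pathway. Of 29 genes of nuclear RNA decay and intron turnover, 4 were higher and 2 lower by the test (20.7%, where all genes tested gave 24.6%), and the median of their log2 fold changes was 0.06. SRRT, which links the cap-binding complex to decay, had 1303, 1355 and 1494 counts in si-NC and 1738, 1917 and 1917 in si-SRSF11 (log2 fold change 0.33, SE 0.051, adjusted p = 4.1e-05). The exosome core genes EXOSC6 (log2 fold change -0.25, adjusted p = 0.0067) and EXOSC1 (-0.24, adjusted p = 0.0084) were lower. Also higher were DBR1, the enzyme that opens intron lariats (0.28), and MTREX, the exosome's nuclear helicase (0.22).

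Of 26 genes of U1 snRNP and of cleavage and polyadenylation, 4 were higher and 3 lower (26.9%, near the 24.6% of all genes tested), with a median of 0.07. CPSF6, a subunit of cleavage factor I that steers the choice of poly(A) site, went from 42.4 ± 2.99 to 68.9 ± 0.962 CPM (SD, n = 3), with 584, 697 and 642 counts in si-NC and 1094, 1106 and 1121 in si-SRSF11 (log2 fold change 0.70, SE 0.061, adjusted p = 2.9e-08). Its partner NUDT21 was higher too (0.19, adjusted p = 0.0051). SNRPA, a protein of the U1 snRNP, was lower (-0.30, SE 0.048, adjusted p = 8e-05), as was CPSF4, a subunit that takes part in reading the poly(A) signal (-0.35, SE 0.056, adjusted p = 8.2e-05). The groups did not overlap in any of these genes. Whether these factors bear on the nested and downstream genes was not tested.

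Overlap with other genes touched a minority of the 155 genes. Of them, 123 share no exon base with another gene, 14 share some with a gene of the opposite strand, and the spans of 29 are crossed by one. The kit does not mark strand and the sources used here do not state how the counting treated it, so such reads cannot be assigned to a strand. None of the 13 genes named as rising or falling shares exon bases with an opposite gene. Among the 123 genes that share none, 14 passed the test, 6 higher and 8 lower, again a smaller share than the 24.6% of all genes tested.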

How the data were processed

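Polyadenylated RNA of LoVo cells was sequenced in 3 si-NC and 3 si-SRSF11 libraries. The authors deposited raw counts per gene without normalization, and the aligner and counting program are not given in the sources used here (hg38 per the labels). All 58735 rows matched GENCODE 29 (Ensembl 94) in coordinates, strand and biotype, and gene_length matched the union of annotated exons. A gene was kept if 3 or more libraries held 10 or more counts, and kept genes were scaled by TMM and tested with edgeR (4.0.16, R 4.3.3, glmQLFit and glmQLFTest), with Benjamini-Hochberg adjustment over 15801 genes and a threshold of 0.05. The SE of a log2 fold change comes from the F statistic, and that of a difference from both SEs taken as independent. CPM use TMM-scaled library sizes, and ratios to a host have 0.5 added to each count. Single values were compared by exact two-sided permutation tests (scipy 1.17.1). Transcript ends and motifs came from the longest GENCODE transcript.

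The members, hosts, lists and tests were chosen with earlier results of these data known. Named genes passed the test with at least 10 counts in 1 library of each group, a mean log2 CPM not below 0 and groups that did not overlap (up to 8 per direction), or were the 6 highest by CPM, up to 3 host pairs per direction with ratios that do not overlap, the hosts, and the top 3 of each list. The downstream group, the ratio of both biotypes and the genes marked so were added after values were seen. MPP6 was left out of the decay list because the table uses that symbol for another gene. Some single genes and transcript ends are not reported here.

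Alternatives were DESeq2 (1.42.0), other scaling and filters, a replicate block and the omission of each library in turn. The labels give no batch. The study's text speaks of pairs of independent RNA samples without saying what a pair shares or naming cultures, so p-values measure the spread between these samples. On simulated counts for 15567 genes, the fit recovered 76 of 85 genes changed by 1 on the log2 scale (89.4%) and 107 of 112 changed by 1.5 (95.5%), with 9 false calls. The changed genes were drawn from genes of all kinds above a low level. The 155 genes had a median of 1.5 CPM against 21.3 CPM over all genes tested, so these shares cannot be carried over to them.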

Additional observations from a re-analysis of the deposited data

How the results depend on the processing

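The number of the 155 genes past the test moved with the setting. It was 9 of 155 with DESeq2, all 9 of them among the 15, where 19.4% of all genes passed. With at least 30 counts in 3 libraries it was 9 of 65, where 29.2% of all genes passed. Among genes with at least 10 counts in all 6 libraries, an alternative added after the data were seen, it was 9 of 103. With 1 library left out it ranged from 8 to 15, with 8 (3 higher, 5 lower) without si-SRSF11 replicate 2. The share of all genes that passed then ranged from 17.3% to 24.5%, with 19.0% without si-SRSF11 replicate 2. DESeq2 gave no adjusted p for AC008982.2 and AC019080.5. The median log2 fold change of the 155 genes ranged from -0.146 to -0.034 with 1 library left out, and the median difference from the host from -0.23 to -0.12. The sense_intronic median ranged from -0.26 to -0.10, the sense_overlapping median from 0.16 to 0.23 and the downstream median from 0.22 to 0.27, so each kept its sign. The summed change ranged from -10.1% to -4.26% for sense_intronic and from 9.7% to 14.5% for sense_overlapping genes. SRSF11 ranged from -0.83 to -0.79. The decay list had 3 calls with DESeq2 and 3 to 6 with 1 library left out (3 without si-NC replicate 1 and 3 without si-NC replicate 2), and the 3′ end list had 6 to 8. AL049840.4 turned to 0.034 without si-NC replicate 1, within a range of -0.121 to 0.034. The cause of these moves was not tested.

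Libraries of the same number did not deviate together (correlations of 0.02, 0.04 and 0.04 across genes), although each library correlated best with its own number. The study's text speaks of pairs, but the labels do not say what libraries of 1 number share, so they were not taken as paired. With the number as a block, 15 of the 155 genes passed, the same genes as without it, where 25.5% of all genes passed. The median was then -0.08 and the median difference from the host -0.18. Depth limits single genes most. At a median of 23.0 counts per library, a gene that did not pass cannot be called unchanged.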
